A study of Mus musculus with 12 samples.

Results

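Aggrecan (Acan), type II collagen (Col2a1) and 8 further genes of the cartilage extracellular matrix were followed across the 4 groups of a macrophage depletion and bulbectomy study of the mouse olfactory epithelium. The genes were taken by name: a probe set was included where its platform gene symbol, or an older alias, was Acan, Hapln1, Col2a1, Col9a1, Col11a2, Matn1, Matn3, Comp, Chad or Cnmd. All 10 genes were on the array, with 15 probe sets between them, of 18193 genes that had a probe set of their own. All 10 were among the 13628 genes kept after a filter on dim probe sets. That filter asks for a signal above the array's 40th percentile, which lay between 65.3 and 79.3, on at least 3 arrays. Dim genes can pass it through the group in which they are brightest, so passing it says nothing about a change.

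The mice were male wild-type C57BL/6J animals aged 6 weeks. Macrophages were targeted with liposomes that carry clodronate (Lip-C), a drug that kills cells which engulf it, and the comparison mice received empty liposomes (Lip-O). Either preparation was given into the nose (50 µl on each of 3 days) and into a tail vein (200 µl on days 1 and 3). On day 2 both olfactory bulbs were removed (OBX), which cuts the axons of the olfactory sensory neurons. The other mice had a sham operation, which was taken here to be on the same day. The epithelium was dissected 48 h after OBX. The titles give 48 h for the OBX arrays and no time for the sham arrays. The 4 groups were Lip-O sham, Lip-C sham, Lip-O OBX and Lip-C OBX, each with 3 arrays that the titles call biological replicates. Clodronate was given by both routes in each Lip-C group, so local and blood-borne macrophage loss cannot be told apart. The labels do not state if an array holds RNA of a single mouse or of a pool, so errors describe the spread between arrays, which may be partly technical.

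Hyaline cartilage is built by chondrocytes around fibrils of type II collagen, with aggrecan bound to hyaluronan filling the space between them and smaller proteins linking the networks. The transcription factor SOX9, with SOX5 and SOX6, drives many of its matrix genes. In the nose, hyaline cartilage forms the septum, whose mucosa includes olfactory epithelium, while the turbinates that carry most of this epithelium are largely bone.

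The dissected tissue carried strong signal of its labelled cells: Omp, the marker of mature olfactory sensory neurons, had group means from 8610 to 16858, and Cyp2g1 of sustentacular cells from 14469 to 16579. The authors had scaled all 12 arrays to the same trimmed mean of 500.0, and median signals ran from 117.5 to 134.2. The ratio of 3′ to 5′ control probe sets, a measure of RNA quality, was 0.767 to 0.868 for Gapdh over all arrays and 0.803 to 0.868 in the Lip-C OBX group. For beta-actin it was 1.296 to 1.433 over all arrays and 1.296 to 1.355 in the Lip-C OBX group. In whole-tissue RNA, fewer cells of a type and less RNA per cell cannot be told apart.

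The mean signal was highest in the Lip-C OBX group for every gene but Col9a1, with replicates 1 and 2 above replicate 3. Lip-C OBX replicate 1 gave the highest signal of all 12 arrays for 9 of the 10 genes, and replicate 2 gave it for Col11a2. Replicate 3 was the lowest of its group for all 10. All 3 Lip-C OBX arrays lay above every other array for Acan, Col2a1, Chad and Cnmd, that is 4 of the 10 genes, against 1.72% of all genes tested. The genes were chosen with their levels after OBX known, so every comparison below that includes OBX arrays is given as a description, with counts past the test's threshold but without p-values for these 10 genes.

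**Figure D1:**
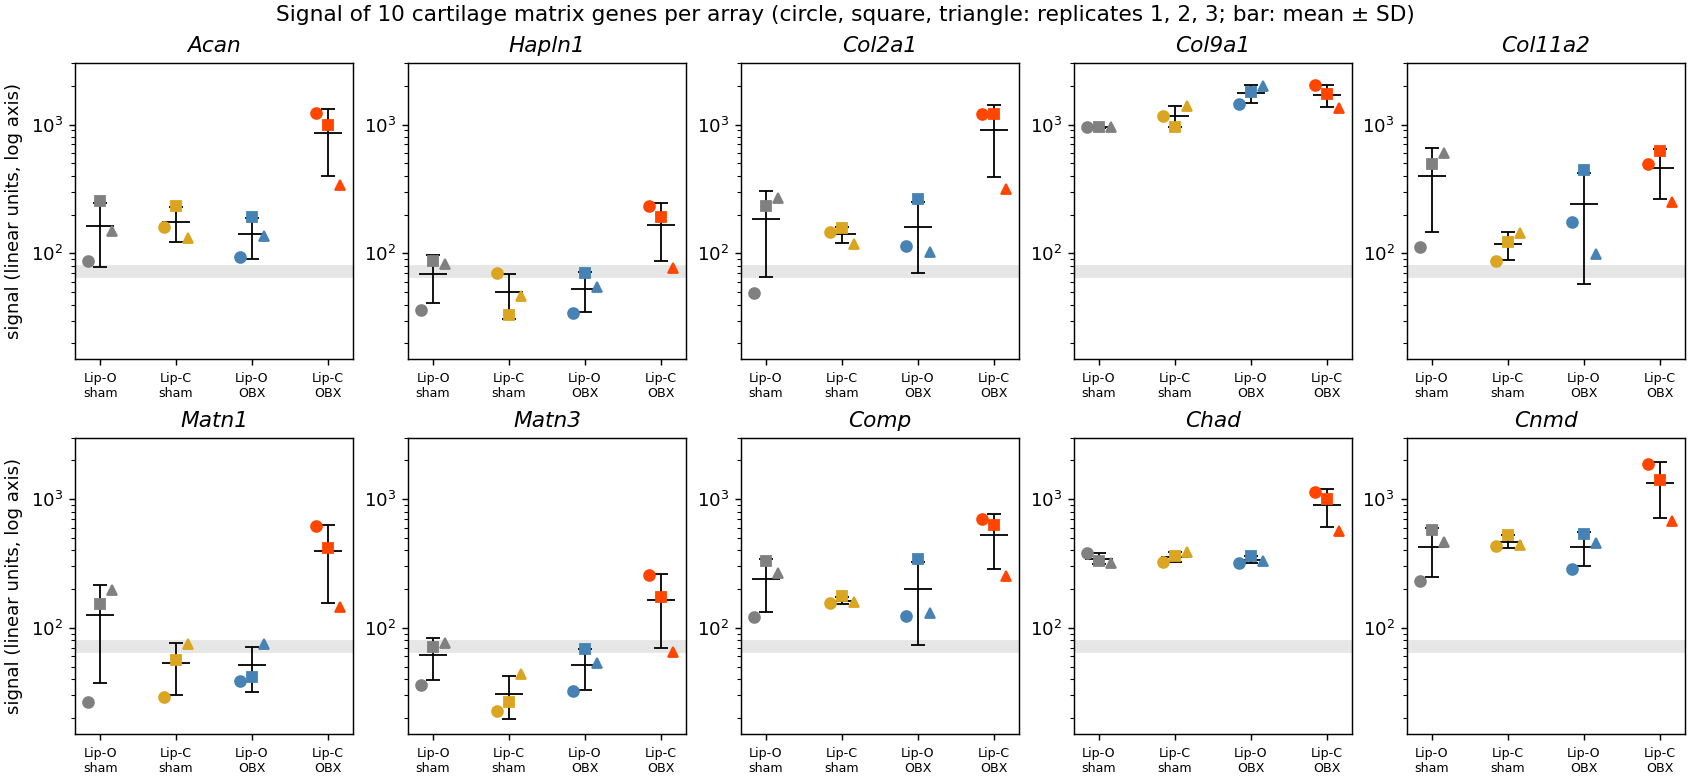
Signal of each of the 10 cartilage matrix genes on every array (linear units, log axis) in the 4 groups. Circles, squares and triangles are replicates 1, 2 and 3, bars are the mean ± SD of 3 arrays, and the grey band marks the arrays' 40th percentiles (65.3 to 79.3). Lip-C OBX replicate 3 is the lowest of its group in all 10 panels, and Col9a1 is the one gene whose Lip-O OBX arrays all lie above both sham groups.

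Among the proteoglycan genes, Acan encodes aggrecan, the large chondroitin sulfate proteoglycan that holds water in cartilage. Its signal was 87.0, 253 and 148 on the Lip-O sham arrays and 92.8, 191 and 136 on the Lip-O OBX arrays. It was 159.6, 233 and 131 on the Lip-C sham arrays and 1228, 996 and 342 on the Lip-C OBX arrays. The first 3 of these groups overlapped throughout, and the Lip-C OBX arrays lay above all of them, replicate 3 by the smallest margin. In ascending order the group means were 140 ± 49.3 (Lip-O OBX), 163 ± 84.1 (Lip-O sham), 175 ± 52.6 (Lip-C sham) and 855 ± 460 (Lip-C OBX; SD, n = 3 each), and the 3 lower ones lay within 1 SD of one another. On the log2(signal + 16) scale, used for all log2 changes here, Acan was 2.04 ± 0.48 (SE) higher after OBX than after sham in Lip-C mice, and -0.14 ± 0.48 in Lip-O mice.

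The promoter of Acan is shown because it and that of Matn3 hold the most GC boxes among these genes. It is given as the 250 bases before the RefSeq start site (build GRCm38.p6, chr7:79052976-79053225, plus strand). Capitals mark GGGCGG or its reverse complement CCGCCC, the core of the GC box.
Acan promoter: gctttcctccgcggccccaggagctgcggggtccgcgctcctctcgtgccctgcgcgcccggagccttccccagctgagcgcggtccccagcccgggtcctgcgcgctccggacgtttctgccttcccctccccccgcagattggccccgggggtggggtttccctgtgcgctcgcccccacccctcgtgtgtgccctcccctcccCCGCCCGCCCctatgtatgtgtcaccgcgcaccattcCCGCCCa
Its GC boxes began 44, 40 and 7 bases before the start, all on the reverse strand and 2 of them overlapping. The sequence held 74.4% G and C, against a median of 52.4% over all 32851 promoters of the table.

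Hapln1 encodes the link protein that fastens aggrecan to hyaluronan. Its brightest probe set read 36.5, 86.4 and 83.2 in the Lip-O sham group, 34.1, 70.7 and 54.5 in the Lip-O OBX group and 70.9, 33.2 and 46.6 in the Lip-C sham group. In the Lip-C OBX group it read 231, 192 and 77.1. Replicates 1 and 2 of that group stood clear of every other array, while replicate 3 lay inside the Lip-O sham range. The means of the 3 other groups lay under the 40th percentile, so signals are given for Hapln1 in place of a log2 change. On the 3 further probe sets of Hapln1 the Lip-C OBX means were 107 ± 62.6, 114 ± 55.0 and 105 ± 58.2, and no other group's mean on them exceeded 39.8. Each exceeded the 40th percentile on 2 arrays, both of the Lip-C OBX group, and so failed the filter. Lip-C OBX replicate 3 read 37.1, 52.2 and 39.8 on them, where the highest array of the other groups read 53.8, 42.7 and 43.0.

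The fibril collagens were measured by 1 probe set each for Col2a1 and Col11a2 and by 2 for Col9a1. Col2a1 encodes type II collagen, the main fibril of cartilage. It read 49.2, 233 and 270.3 on the Lip-O sham arrays and 114, 263 and 103 on the Lip-O OBX arrays. It read 146, 158 and 118 on the Lip-C sham arrays and 1209, 1199 and 314 on the Lip-C OBX arrays. The Lip-C OBX arrays were the 3 highest, but replicate 3 exceeded Lip-O sham replicate 3 by little, and Lip-O sham replicate 1 was the lowest of all 12. The ratio of the highest to the lowest Lip-O sham array was 5.49, so this gene varied widely among control arrays. Col2a1 was 2.34 ± 0.62 (SE) higher on the log2 scale after OBX in Lip-C mice, and -0.03 ± 0.62 in Lip-O mice.

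Col11a2 encodes a chain of type XI collagen, which sits in the core of type II fibrils and limits their width. Its signal was 112, 490.4 and 596 in Lip-O sham, 176, 445 and 99.0 in Lip-O OBX, 87.0, 122 and 144 in Lip-C sham and 495, 623 and 249 in Lip-C OBX mice. Its Lip-C OBX arrays lay above the Lip-C sham arrays, but replicates 1 and 3 lay within the range of the Lip-O sham arrays, unlike those of Acan and Col2a1. Group means were 118 ± 28.7 (Lip-C sham), 240 ± 182 (Lip-O OBX), 399 ± 254 (Lip-O sham) and 456 ± 190 (Lip-C OBX), with the last 3 within their spread. The OBX difference was 1.75 ± 0.63 (SE) in Lip-C mice and -0.66 ± 0.63 in Lip-O mice on the log2 scale.

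Col9a1 encodes a chain of type IX collagen, which decorates the surface of type II fibrils, and the gene has a second, downstream start known for a shorter chain. Its pattern differed from the rest. The signal was 965, 954 and 949 in Lip-O sham, 1446, 1803 and 2000.4 in Lip-O OBX, 1161, 964 and 1398 in Lip-C sham and 2027, 1732 and 1348 in Lip-C OBX mice. Every Lip-O OBX array lay above every Lip-O sham array, and the 2 OBX groups overlapped, with means of 1750 ± 281 and 1703 ± 340. The second probe set read 292, 318 and 398 and 474, 431 and 464 in Lip-O sham and Lip-O OBX mice, again without overlap. After OBX Col9a1 was 0.85 ± 0.17 (SE) higher in Lip-O mice and 0.53 ± 0.17 higher in Lip-C mice on the log2 scale. On the second probe set these changes were smaller, at 0.44 ± 0.13 and 0.19 ± 0.13. Its Lip-C sham arrays read 365.9, 351.4 and 444.5 and its Lip-C OBX arrays 481.1, 465.3 and 386.0. The Lip-C sham arrays thus overlapped both OBX groups on that probe set.

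Both Col9a1 starts are shown because this gene was the exception, and neither holds any of the motifs searched, so no letters are in capitals (GRCm38.p6, plus strand, chr1:24177360-24177609 and chr1:24194953-24195202).
Col9a1 upstream start: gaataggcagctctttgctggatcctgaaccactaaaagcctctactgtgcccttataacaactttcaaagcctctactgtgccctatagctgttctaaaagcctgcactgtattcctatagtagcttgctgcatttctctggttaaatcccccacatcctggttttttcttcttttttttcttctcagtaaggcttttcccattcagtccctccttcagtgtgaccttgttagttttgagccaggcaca
Col9a1 downstream start: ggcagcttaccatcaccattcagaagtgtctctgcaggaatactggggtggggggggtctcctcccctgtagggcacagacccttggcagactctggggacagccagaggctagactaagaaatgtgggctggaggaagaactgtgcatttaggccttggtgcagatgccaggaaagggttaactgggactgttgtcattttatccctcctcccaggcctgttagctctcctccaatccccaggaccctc
The share of G and C was 43.6% before the upstream start and 56.0% before the downstream one. The values do not say from which start the measured RNA came, since which transcripts each probe set reads was not analysed here.

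The adaptor proteins link collagen fibrils to other matrix. Matn1 encodes matrilin-1, a filament-forming protein of cartilage. Its signal was 26.7, 152 and 198 in Lip-O sham, 38.6, 41.3 and 74.4 in Lip-O OBX, 29.0, 56.0 and 74.4 in Lip-C sham and 616, 418 and 146 in Lip-C OBX mice. The Lip-O sham arrays spread 7.43-fold from lowest to highest and reached past Lip-C OBX replicate 3. Replicates 1 and 2 of the Lip-C OBX group lay above all other arrays. The means of the Lip-C sham and Lip-O OBX groups (53.1 ± 22.8 and 51.4 ± 19.9) lay under the 40th percentile.

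Matn3, a further matrilin, was the dimmest of these genes relative to that percentile, with 3 of 12 arrays above it. It read 35.9, 70.9 and 76.2 in Lip-O sham, 32.4, 68.0 and 53.0 in Lip-O OBX, 22.5, 26.5 and 43.5 in Lip-C sham and 256, 175 and 65.3 in Lip-C OBX mice. Lip-C OBX replicates 1 and 2 were the 2 highest arrays, and replicate 3 lay within the Lip-O sham and Lip-O OBX ranges. A second, dimmer Matn3 probe set averaged 115 ± 74.8 in the Lip-C OBX group and at most 31.6 in the others. That probe set exceeded the 40th percentile on 2 arrays, both of the Lip-C OBX group, and so failed the filter. Lip-C OBX replicate 3 read 42.8 on it, where the highest array of the other groups read 51.4.

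Comp encodes cartilage oligomeric matrix protein, which binds collagens and is also made in tendon. Its signal was 122, 328 and 268 in Lip-O sham, 123, 344 and 130.2 in Lip-O OBX, 156, 176 and 158 in Lip-C sham and 700.1, 634 and 255 in Lip-C OBX mice. Lip-O OBX replicate 2 lay above Lip-C OBX replicate 3, so the OBX groups overlapped. The OBX difference was 1.48 ± 0.46 (SE) in Lip-C mice and -0.29 ± 0.46 in Lip-O mice on the log2 scale.

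Of the cell-binding proteins, Chad encodes chondroadherin, a leucine-rich repeat protein through which chondrocytes attach to the matrix. It read 384, 332 and 320.2 in Lip-O sham, 319.6, 364 and 333 in Lip-O OBX, 324, 359.8 and 388 in Lip-C sham and 1137, 1003 and 567 in Lip-C OBX mice. This was the steadiest of the genes outside the Lip-C OBX group: the 9 other arrays ran from 319.6 to 388, and every Lip-C OBX array lay above them. Mean signals were 339 ± 22.6 (Lip-O OBX), 345 ± 33.6 (Lip-O sham), 358 ± 32.1 (Lip-C sham) and 902 ± 298 (Lip-C OBX). The log2 difference after OBX was 1.24 ± 0.21 (SE) in Lip-C mice and -0.03 ± 0.21 in Lip-O mice.

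The Chad promoter is shown as the one with a TATA box close to the start (GRCm38.p6, chr11:94564797-94565046, plus strand). Capitals mark TATAAA, which began 28 bases before the start, and a GGGCGG that began 108 bases before it.
Chad promoter: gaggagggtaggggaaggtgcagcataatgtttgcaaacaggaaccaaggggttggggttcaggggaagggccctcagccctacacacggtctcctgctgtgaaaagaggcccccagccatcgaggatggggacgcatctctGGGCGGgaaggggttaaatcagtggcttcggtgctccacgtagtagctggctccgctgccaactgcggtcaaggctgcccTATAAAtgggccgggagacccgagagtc
Promoter entries were found for 8 of the 10 genes, 9 entries in all because Col9a1 has a pair of starts; Col2a1 and Comp had none. Both strands of the 250 bases before each start were searched for ACAATG and ACAAAG, core letters that SOX9 and related factors bind, for TATAAA and for GGGCGG. Neither SOX core occurred in any of the 9, while 10.7% of all promoters of that length hold ACAATG and 16.5% hold ACAAAG. The letters TATAAA were in 2 entries (Chad, and Col11a2 at 143 bases before the start) against 12.4% of all promoters, and GGGCGG was in 5 (Acan, Col11a2, Matn1, Matn3 and Chad) against 32.7%. These are matches of letters in one window.

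Cnmd encodes chondromodulin, a membrane glycoprotein whose released part keeps blood vessels out of cartilage. It read 232, 577 and 462 in Lip-O sham, 287, 534 and 459.5 in Lip-O OBX, 432, 530.4 and 443 in Lip-C sham and 1889, 1411 and 672 in Lip-C OBX mice. All 3 Lip-C OBX arrays lay above the 9 others, replicate 3 at 672 against a highest other array of 577. The log2 difference after OBX was 1.35 ± 0.40 (SE) in Lip-C mice and 0.06 ± 0.40 in Lip-O mice.

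Clodronate without bulbectomy is the one comparison that holds no OBX array. The genes were chosen on levels after OBX, but with earlier results of these data known. The sham arrays are also the controls of the OBX comparisons, so this comparison is not fully free of that choice. Lip-C sham against Lip-O sham mice showed no gene of the 10 past the threshold (limma, adjusted p under 0.05 over all genes), and none at an unadjusted p under 0.05, where 2.08% (1.26% higher, 0.814% lower) and 21.9% of all genes tested passed. Log2 differences ran from -1.38 ± 0.63 for Col11a2 (adjusted p = 0.231) to 0.28 ± 0.17 for Col9a1 (adjusted p = 0.386), with a median of -0.22 against 0.00 over all genes. The sign was negative for 6 genes and positive for 4. For all 10 genes the arrays of the 2 groups overlapped, where 16.2% of all genes lay higher without overlap and 13.4% lower. The standard errors of these genes were wide (median 0.44, against 0.12 over all genes).

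Bulbectomy with empty liposomes left 9 of the 10 genes without a call. Col9a1 was the one gene past the threshold, in the higher direction, where 19.6% of all genes were called, 10.7% higher and 8.83% lower. Its Lip-O OBX arrays did not overlap the Lip-O sham arrays, as for 21.6% of all genes in that direction. The median log2 difference over the 10 genes was -0.16, against 0.05 over all genes.

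Bulbectomy with clodronate gave 8 of the 10 genes past the threshold, all higher: Acan, Hapln1, Col2a1, Matn1, Matn3, Comp, Chad and Cnmd. For Hapln1, Matn1 and Matn3 the Lip-C sham means (50.2, 53.1 and 30.8) lay under the 40th percentile. Matn3 passed the filter on 3 arrays, 2 of them Lip-C OBX, so it entered the test through the group where it was high. Over all genes 19.1% were called, 10.3% higher and 8.83% lower. For 9 genes the Lip-C OBX arrays lay above all Lip-C sham arrays, as 23.0% of all genes did, and the exception was Col9a1. The median log2 difference was 1.62, against 0.04 over all genes. The fold of the mean signal, Lip-C OBX over Lip-C sham, was 6.46 for Col2a1, 4.90 for Acan, 2.52 for Chad and 1.45 for Col9a1. The number of calls depended on single arrays, among these genes and over all genes (2606 of 13628 with all arrays). Without Lip-C OBX replicate 1, or without replicate 2, Chad alone remained, with 840 and 1043 of all genes. Without Lip-C sham replicate 1, 2 or 3 the count was 4, 2 and 3, with 1935, 1052 and 1213 of all genes. Without Lip-C OBX replicate 3, the lowest of its group, it was 9, with 3030 of all genes. With no filter on dim probe sets it was 5, with 1725 of 18193 genes. With an intensity trend in the variance it was 10, with 2948 of all genes.

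Clodronate with bulbectomy, Lip-C OBX against Lip-O OBX, uses the same Lip-C OBX arrays as the comparison before it, so both share whatever those arrays have in common. Chad was past the threshold, higher, where 0.345% of all genes were called, 0.125% higher and 0.22% lower. Its call was lost without Lip-C OBX replicate 1 or 2, without any 1 of the Lip-O OBX arrays, and in a fit of these 2 groups alone. Over all genes 47 were called with all arrays, and 13 and 19 without Lip-C OBX replicate 1 or 2. Without Lip-O OBX replicate 1, 2 or 3 they were 7, 37 and 77, and in the fit of 2 groups 2. Acan passed as well without Lip-C OBX replicate 3 and with an intensity trend in the variance. Arrays of the 2 groups did not overlap for 6 genes (Acan, Hapln1, Col2a1, Matn1, Chad and Cnmd), all higher, as for 8.21% of all genes, and for none were they lower without overlap, as for 7.81% of all genes. Log2 differences were 2.35 ± 0.48 (SE) for Acan, 2.28 ± 0.62 for Col2a1, 1.52 ± 0.40 for Cnmd, 1.37 ± 0.46 for Comp, 1.32 ± 0.21 for Chad, 1.03 ± 0.63 for Col11a2 and -0.05 ± 0.17 for Col9a1. The median over the 10 genes was 1.34, against 0.01 over all genes.

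**Figure D2:**
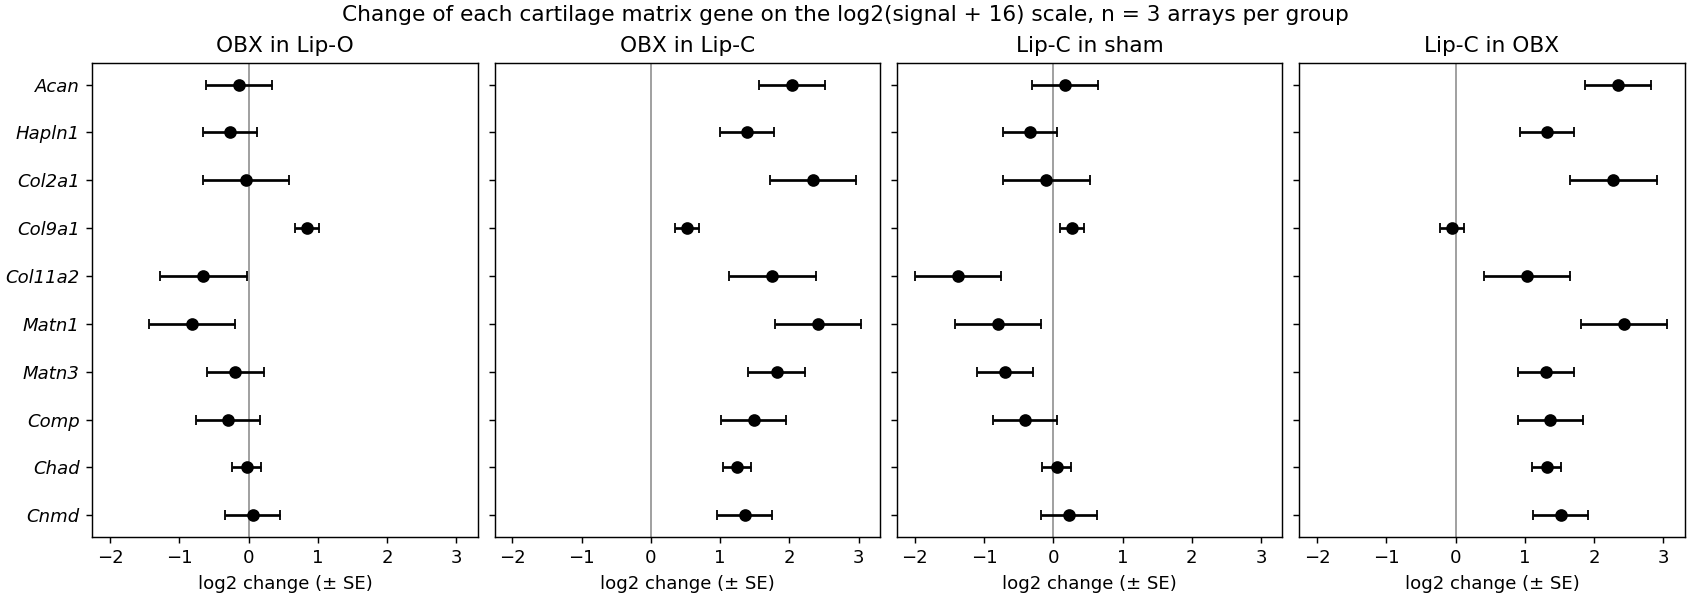
Log2 change (± SE, n = 3 arrays per group) of each gene in the 4 pairwise comparisons: OBX against sham within Lip-O and within Lip-C mice, and Lip-C against Lip-O within sham and within OBX mice. The OBX in Lip-C and the Lip-C in OBX panels share the Lip-C OBX arrays, and Col9a1 sits at 0.85 for OBX in Lip-O mice and at -0.05 for Lip-C in OBX mice.

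The difference between the OBX effects of the Lip-C and Lip-O mice (the interaction) had no gene past the threshold, among these 10 or among all 13628 tested (0.0%). At an unadjusted p under 0.05 there were 9 of the 10 genes, all but Col9a1, and 2403 of all genes (17.6%). The median interaction was 1.89 on the log2 scale over the 10 genes, with Col9a1 at -0.32 ± 0.24 (SE) and Acan at 2.18 ± 0.67. Without Lip-C OBX replicate 3 the interaction called 3 genes, among them Chad. It called none of the 10 but 70 of all genes with an intensity trend in the variance, and none of the 10 but 159 of all genes without Lip-O OBX replicate 2. Since the genes were chosen on OBX levels, nothing is read from these counts.

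Within groups, the 10 genes varied together from array to array. After the group means were subtracted, the median correlation over the 45 pairs of genes was 0.71 over 12 arrays, against 0.00 over pairs of all genes tested. It ran from 0.16 between Col9a1 and Col11a2 to 0.96 between Acan and Cnmd. All pairs share the same 12 arrays, and Lip-C OBX replicate 3 contributes to each: without that array the median was 0.59. Lip-O sham replicate 1 was the lowest of its group for 8 genes, and Lip-O OBX replicate 2 the highest of its group for 8 genes. Against the mean of the 9 others over the 12 arrays, Col2a1 had the highest correlation (0.97), and Col9a1 (0.45) and Col11a2 (0.71) the lowest.

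The genes outside the 10 whose log2 values were most like the mean pattern over the 12 arrays were Snorc (r = 0.94), Fmod (0.94), Abi3bp, Col8a2 and Cys1 (0.93 each), Col27a1, Emp2 and Col10a1 (0.93 each), and Susd5 and Adamts9 (0.92 each). After the group means were subtracted, their correlations with the pattern ran from 0.80 for Col27a1 to 0.96 for Adamts9. Col10a1 had the widest swing of these, from 27.9 on Lip-O OBX replicate 1 to 1693 on Lip-C OBX replicate 1. On Lip-C OBX replicates 2 and 3 it read 1289 and 227, and 238 on the highest other array, Lip-O sham replicate 3. Like the 10 genes, all of these were lowest on replicate 3 within the Lip-C OBX group.

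**Figure D3:**
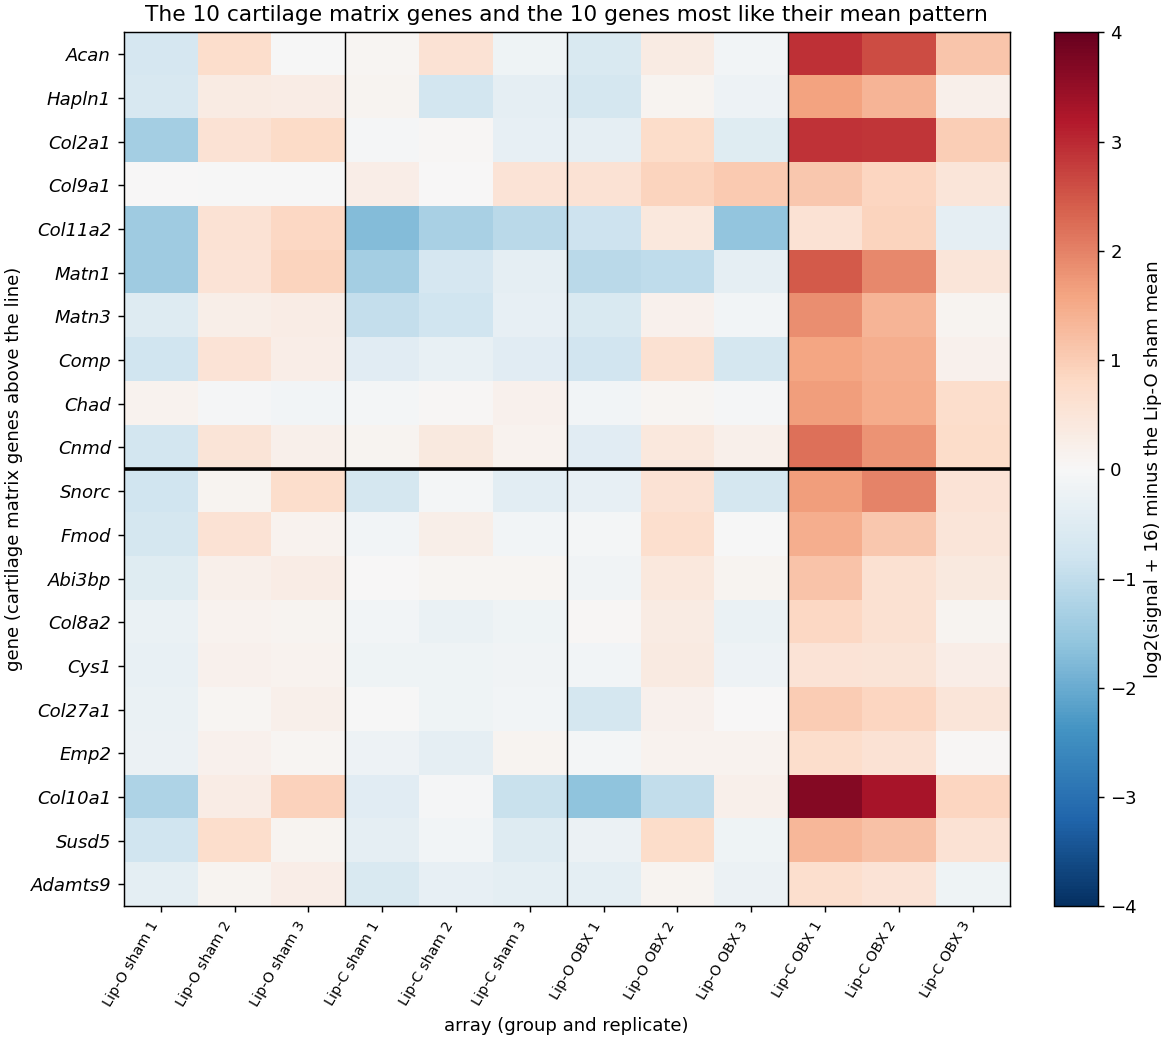
Log2(signal + 16) of each gene on each array, minus the gene's mean over the Lip-O sham arrays, as colour (red higher, blue lower). Rows above the line are the 10 cartilage matrix genes and rows below it the 10 genes most like their mean pattern; columns are the 12 arrays by group and replicate. Lip-C OBX replicates 1 and 2 are the reddest columns, and Lip-C OBX replicate 3 is paler in every row.

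Beyond the 10 genes, 53 other cartilage genes were listed by role, of which 50 had a probe set of their own and 44 passed the filter. This list and the marker lists below were also drawn up with earlier results of these data known. Their counts and p-values describe these data and are no independent support. Which cells made the RNA of the listed genes was not tested. Ugdh and Papss2 had group means of 7017 to 9643 and 6108 to 8464, against 140 to 855 for Acan. With empty liposomes, OBX raised 9 of the 44 and lowered 3 (limma, adjusted p under 0.05), where 10.7% and 8.83% of all genes were called higher and lower. Their median log2 change was 0.17 against 0.05 over all genes. With clodronate, OBX raised 11 and lowered 1, where 10.3% and 8.83% of all genes were called, with a median of 0.48 against 0.04. Lip-C raised 1 and lowered none in sham mice, and raised and lowered none in OBX mice, where 17 of the 44 had an unadjusted p under 0.05, as did 12.7% of all genes. The interaction had no call, with 15 of the 44 at an unadjusted p under 0.05, as had 17.6% of all genes. The count of 12 calls for OBX in Lip-C mice was 4 without Lip-C OBX replicate 1, 4 without replicate 2, and 19 without replicate 3. Over all genes 840, 1043 and 3030 were called in these fits, against 2606 with all arrays. The count was 5 without Lip-C sham replicate 2, 4 without Lip-C sham replicate 3, 8 without Lip-C sham replicate 1 and 8 with no filter. Over all genes 1052, 1213, 1935 and 1725 were called there. For OBX in Lip-O mice the 12 calls were 8 when Lip-O sham replicate 3 was left out, 7 without Lip-O OBX replicate 1 and 8 in a fit of the 2 groups alone. Over all genes these fits called 1537, 1414 and 1577, against 2666 with all arrays.

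Among 5 tested transcription factors, Sox9, the main regulator of chondrocyte genes that is also made in glands of the olfactory mucosa, rose in both OBX comparisons. Its mean signal was 211 ± 5.88 in Lip-O sham, 246 ± 53.8 in Lip-C sham, 455 ± 42.8 in Lip-O OBX and 455 ± 70.1 in Lip-C OBX mice (SD, n = 3). The log2 change after OBX was 1.05 ± 0.14 in Lip-O mice (limma, adjusted p = 0.00168) and 0.86 ± 0.14 in Lip-C mice (adjusted p = 0.00623). Between Lip-C OBX and Lip-O OBX mice the log2 difference of Sox9 was -0.01 ± 0.14 (limma, adjusted p = 0.992), where that of Acan was 2.35 and that of Col2a1 2.28. Trps1, a repressor active in growth plates, fell by 0.54 after OBX in Lip-O mice (adjusted p = 0.0201).

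Among 5 other collagens, 4 rose after OBX in Lip-C mice, where 10.3% of all genes were called higher. They were Col9a3, Col10a1, Col27a1 and Col11a1. The last falls outside the rule for naming genes and is given because of the small count. Col9a3, a chain of type IX collagen like Col9a1, also rose in Lip-O mice (limma, adjusted p = 0.00968 there and 0.00551 in Lip-C mice). Its mean signal was 60.7 ± 24.5 in Lip-O sham, below the 40th percentile, 79.6 ± 14.6 in Lip-C sham, 160 ± 30.7 in Lip-O OBX and 282 ± 70.6 in Lip-C OBX mice. Col10a1, the collagen of hypertrophic chondrocytes, averaged 82.8 ± 28.8 in Lip-C sham and 1070 ± 757 in Lip-C OBX mice, a log2 change of 3.09 ± 0.76 (limma, adjusted p = 0.0217). Col11a1, the partner chain of Col11a2, changed by 1.57 ± 0.46 (adjusted p = 0.0403), and Col27a1 by 0.89 ± 0.22 (adjusted p = 0.0226).

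Of 15 other matrix proteins, 3 rose and 1 fell after OBX in Lip-C mice, where 10.3% of all genes rose and 8.83% fell. Mgp, an inhibitor of mineral deposition, rose by 0.83 ± 0.16 on the log2 scale (limma, adjusted p = 0.00874), and Snorc, a small membrane proteoglycan of chondrocytes, by 1.81 ± 0.46 (adjusted p = 0.0234). Matn4, outside the naming rule, rose by 0.95 ± 0.27 (adjusted p = 0.036). Matn2, a matrilin made in many tissues besides cartilage, fell by 0.58 (adjusted p = 0.0164), opposite in sign to Matn1, Matn3 and Matn4. In Lip-O mice OBX raised 1 of the 15, Scrg1, by 0.51 ± 0.12 (adjusted p = 0.0145), where 10.7% of all genes rose. Fmod, which binds type I and II collagen, had a mean of 1432 ± 211 in Lip-C sham and 2985 ± 983 in Lip-C OBX mice and missed the threshold (adjusted p = 0.0602).

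The 7 tested genes of sulfate and chondroitin synthesis were called mainly with empty liposomes, where 4 rose and 2 fell after OBX. Over all genes 10.7% rose and 8.83% fell in that comparison. Papss2, which makes the sulfate donor, rose by 0.47 ± 0.08 on the log2 scale (limma, adjusted p = 0.00432), with Csgalnact1 (0.70), Slc26a2 (0.56) and Ugdh (0.29) also higher. The sulfotransferase Chst11 fell by 0.84 (adjusted p = 0.00162) and the polymerase Chsy1 by 0.47 (adjusted p = 0.0143); Csgalnact1 and Chsy1 fall outside the naming rule. In Lip-C mice Ugdh, which makes the glucuronic acid precursor, rose by 0.37 ± 0.07 (adjusted p = 0.0102), and the sulfate transporter Slc26a2 by 0.56 ± 0.15 (adjusted p = 0.0315). Whether the 2 OBX effects on this group differ was tested gene by gene with the interaction, which had no call.

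Among 6 signalling genes, Ccn2, a matricellular growth factor of chondrocytes and fibroblasts, was the gene raised by Lip-C in sham mice. Its mean signal was 1634 ± 205 in Lip-O sham, 4565 ± 294 in Lip-C sham, 3621 ± 1357 in Lip-O OBX and 3087 ± 477 in Lip-C OBX mice. The log2 change by Lip-C in sham mice was 1.48 ± 0.25 (limma, adjusted p = 0.0254), a call lost without replicate 2 or 3 of either sham group. OBX in Lip-O mice raised Ccn2 by 1.07 ± 0.25 (adjusted p = 0.0139) and Bmpr1b, a receptor for bone morphogenetic proteins, by 0.46 ± 0.12 (adjusted p = 0.0203). OBX in Lip-C mice raised Gdf5, a ligand of joint formation, by 0.68 ± 0.21 (adjusted p = 0.0482). None of 6 tested proteases and their inhibitor passed the threshold in any of the 5 comparisons. At an unadjusted p under 0.05 there were 2, 1, 0, 1 and 0 for Lip-C in sham, Lip-C in OBX, OBX in Lip-O, OBX in Lip-C and the interaction. In the same order 21.9%, 12.7%, 33.9%, 35.3% and 17.6% of all genes had such a p.

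**Figure D4:**
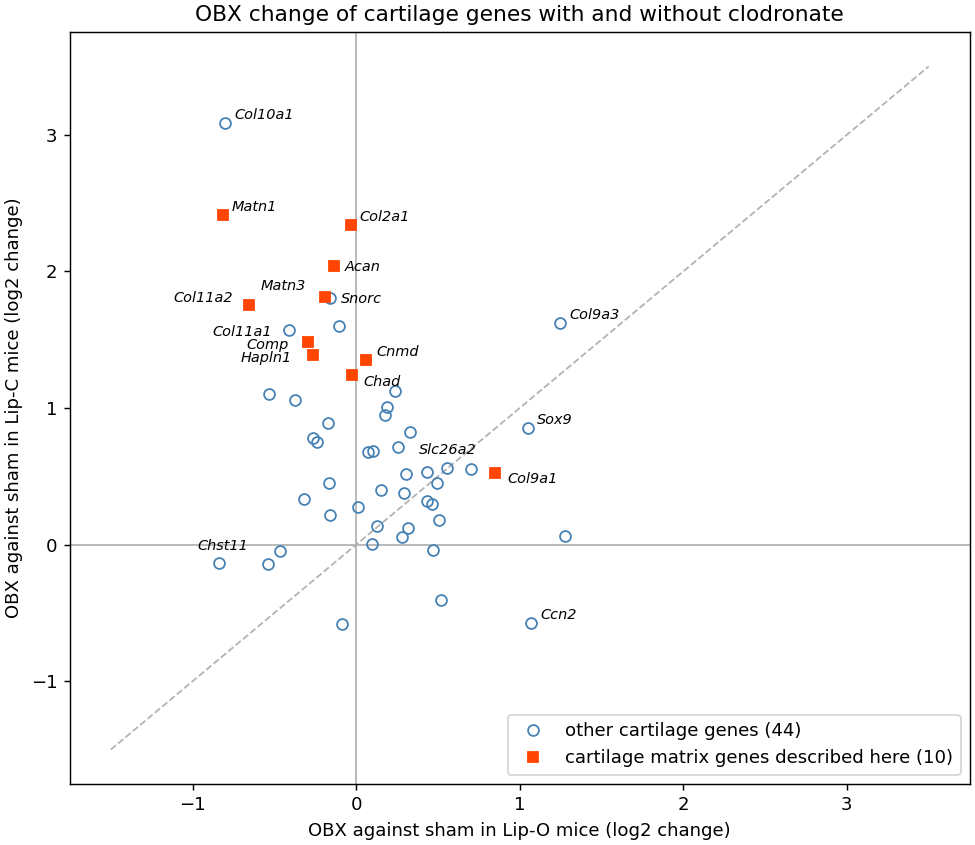
Log2 change after OBX in Lip-C mice (vertical axis) against that in Lip-O mice (horizontal axis) for the 10 cartilage matrix genes (filled squares) and the 44 other cartilage genes tested (open circles), with equal change on the dashed line. Sox9, Col9a3 and Col9a1 were higher after OBX on both axes, while Acan (2.04 and -0.14) and Col2a1 (2.34 and -0.03) lie near 0 on the horizontal axis.

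Markers of other tissues that a nasal dissection can hold moved across the same arrays. Of 7 tested osteoblast and osteocyte genes, none rose and 2 fell in Lip-C sham against Lip-O sham mice (median log2 change -1.92), 4 rose and none fell after OBX in Lip-C mice (median 1.53), and none was called between Lip-C OBX and Lip-O OBX (median 0.22). Over all genes 0.814% fell in the first of these comparisons and 10.3% rose in the second. Their summed signal was 10856 to 22414 in Lip-O sham, 3147 to 5415 in Lip-C sham, 6621 to 18638 in Lip-O OBX and 8104 to 19449 in Lip-C OBX mice. Dmp1, an osteocyte protein, averaged 140 ± 62.0 in Lip-C sham and 1211 ± 835 in Lip-C OBX mice, and Col1a1, the main chain of bone collagen, 2290 ± 1040 and 9463 ± 4034. The bone markers were thus low in Lip-C sham mice, where the median difference of the 10 cartilage genes was -0.22. Their median interaction was 2.25, against 1.89 for the 10 cartilage genes. None of the 7 was called for it, and all 7 had an unadjusted p under 0.05 (limma), as had 17.6% of all genes.

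Osteoclast genes were tested for 6 members, since osteoclasts are bone-resorbing relatives of macrophages. In sham mice Lip-C lowered 3 (Acp5, Ctsk and Mmp9) and raised none, with a median log2 change of -1.32, where 0.814% of all genes fell. OBX changed none of them past the threshold in either liposome group, with 4 at an unadjusted p under 0.05 in Lip-C mice and 0 in Lip-O mice, where 35.3% and 33.9% of all genes had one. Their summed signal was 1918 to 2518 in Lip-C sham and 2835 to 6678 in Lip-C OBX mice, against 8634 to 10214 in Lip-O sham and 4091 to 10319 in Lip-O OBX mice.

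Fibroblast genes showed 6 of 9 higher after OBX in Lip-C mice (median log2 change 0.87), and 1 in Lip-O mice, where 10.3% and 10.7% of all genes were called higher. Their summed signal was 22404 to 27503 in Lip-C sham, 34060 to 50359 in Lip-C OBX, 31429 to 49470 in Lip-O sham and 31491 to 47984 in Lip-O OBX mice. The median interaction was 0.66 for the fibroblast genes and 0.92 for the osteoclast genes, without a call in either list. Lip-C OBX replicate 3 had the lowest sum of its group for the cartilage, osteoblast, osteoclast and fibroblast lists alike, and Lip-O sham replicate 1 the lowest sum of its group for the same 4 lists. In the Lip-O OBX group replicate 3 had the lowest sum for the 3 latter lists, and replicate 1 for the 10 cartilage genes. The part of bone or connective tissue in the cartilage values was not tested.

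Muscle and liver markers were low or moved elsewhere. None of 4 tested muscle genes was called in any comparison. None had an unadjusted p under 0.05, where 12.7% to 35.3% of all genes had one, depending on the comparison. Their summed signal stayed between 248 and 401, while Myh4, Myh1, Tnnt3 and Tnnc2 did not pass the filter. Of 4 tested liver genes 3 rose after OBX in Lip-O mice (Alb, Ttr and Ahsg), where 10.7% of all genes did, with Alb at 621 ± 523 in that group and at most 38.9 in the others. The neuron markers fell after OBX, 6 of 7 in Lip-O and 3 of 7 in Lip-C mice, where 8.83% of all genes fell in each. Neither the neuron nor the liver list had its highest or lowest sum on the Lip-C OBX arrays.

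**Figure D5:**
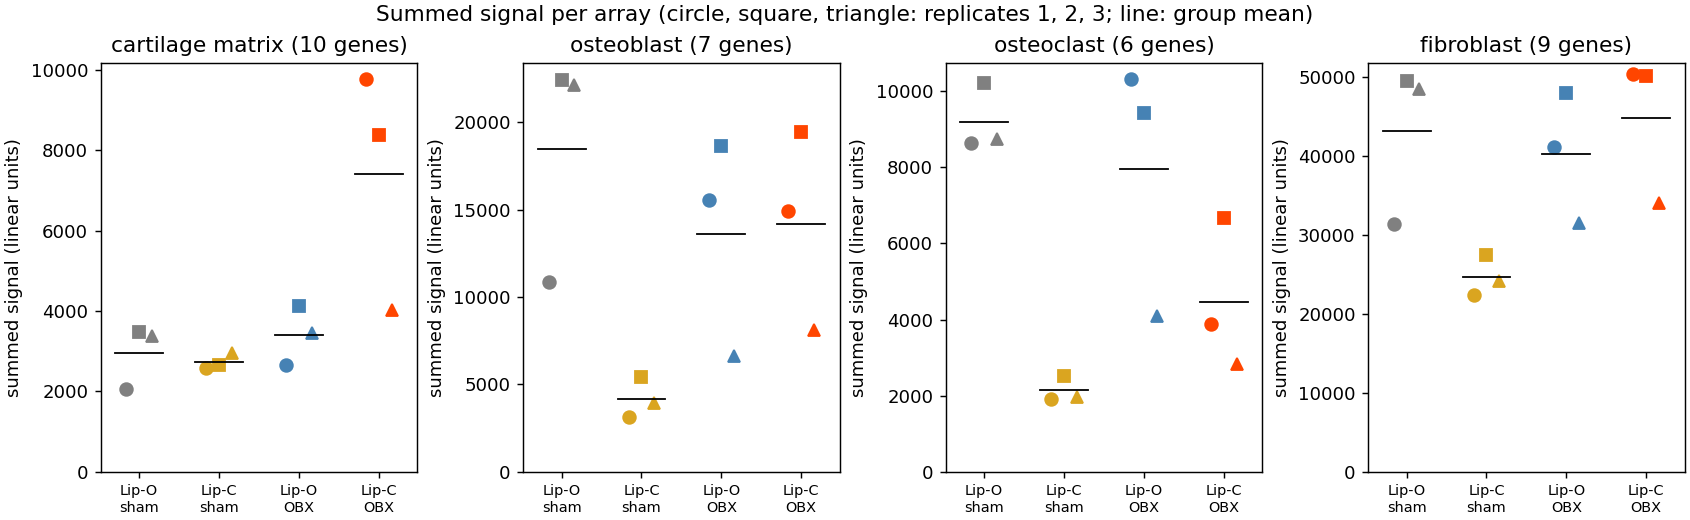
Summed signal per array (linear units, axes from 0) of the 10 cartilage matrix genes and of the tested osteoblast, osteoclast and fibroblast genes. Circles, squares and triangles are replicates 1, 2 and 3 and lines are group means. Cartilage sums of the Lip-C OBX arrays run from 4035 to 9789, with replicate 3 lowest. Group means are lowest in the Lip-C sham group in every panel. The Lip-C sham arrays lie below all others for bone, osteoclast and fibroblast genes, and within the Lip-O sham range for cartilage.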

How the data were processed

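Per the labels, the deposited series holds 1 linear intensity per probe set from each of 12 one-colour Affymetrix Mouse 430 2.0 arrays hybridised with biotin-labelled cRNA. The authors had scaled each array to a mean of 500.0 after 2% trimming. Neither labels nor headers name the algorithm that summarised the probes. Platform annotation gave 1 gene to 34945 of 45101 probe sets, several to 932 and none to 9160, and 64 were controls and left out.

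The deposited intensities were taken as log2(signal + 16), which understates changes of dim genes, and kept where 3 or more arrays exceeded their own 40th percentile (28986 probe sets). The brightest probe set by mean signal stood for a gene. The 4 group means were fitted in 1 model over 13628 genes with limma 3.58.1 in R 4.3.3 (8 residual degrees of freedom, 2.55 from moderation), in 5 comparisons: Lip-C in sham, Lip-C in OBX, OBX in Lip-O, OBX in Lip-C, and the interaction. Tests were two-sided, with Benjamini-Hochberg adjustment over all genes and a threshold of 0.05, and the script was tested on simulated data. An exact permutation test of 3 against 3 arrays cannot go below p = 0.1 and was not used. Groups and replicate numbers came from the sample titles. The number of arrays limits the precision.

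The 10 genes and all lists were chosen with earlier results of these data known, so p-values of the 10 genes are given for Lip-C in sham mice alone. Those of listed genes are given as descriptions and are no independent test. Named were the 10 genes and, for each cartilage role, Sox9 and the 2 genes with the smallest adjusted p in each comparison where they passed. Also named were the 10 genes with the highest correlation with the mean pattern, and markers a result turns on. Where a group mean of Hapln1, Matn1 or Matn3 lay under the 40th percentile, signals are given. Of the listed genes, Clec3a, Xylt1, Pthlh, Bglap, Runx2, Ano2 and Cyp2a5 were not analysed here. Promoters are from RefSeq (GRCm38.p6), matched by symbol. Alternatives were another pseudocount (1 or 64), no filter, quantile normalization, averaging all probe sets of a gene, the compared groups alone, an intensity trend, the replicate block, and leaving out each array.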

Additional observations from a re-analysis of the deposited data

Results flagged for a closer look

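Some genes lay on opposite sides of the control group's mean in the 2 levels of the other treatment. For Col2a1, Col11a2, Matn1, Matn3 and Comp, each Lip-C sham array lay below the mean signal of the Lip-O sham group, while each Lip-C OBX array lay above the Lip-O OBX mean. Single arrays of the sham groups overlapped for all of these genes, and none was called for Lip-C in sham mice. The fitted interactions were 2.38 for Col2a1, 2.41 for Col11a2, 3.23 for Matn1, 2.00 for Matn3 and 1.78 for Comp on the log2 scale. For Matn1 the OBX effect showed the same opposition between Lip-O and Lip-C mice. The values of Matn1 and Matn3 are fitted over group means under the 40th percentile and depend on the pseudocount, so they are no measured fold. None of the 5 passed the adjusted threshold in the limma fit, and since the genes were chosen on their levels after OBX that fit is no independent test of the difference.

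Among the other cartilage genes the interaction was tested in limma and none passed. It was 3.89 for Col10a1 (adjusted p = 0.125) and -1.64 for Ccn2 (adjusted p = 0.0864), and both showed the opposition for Lip-C and for OBX. It was 0.70 for Chst11 (adjusted p = 0.0926), -0.50 for Matn2 (adjusted p = 0.208) and -0.51 for Papss2 (adjusted p = 0.0921), which showed it for Lip-C alone. These genes are no full list. Snorc, Col27a1, Col11a1 and Cilp, the last outside the naming rule, were among others that showed the opposition for Lip-C. Their interactions were 1.97, 1.06, 1.98 and -0.92 (limma, adjusted p = 0.164, 0.138, 0.168 and 0.111). A rule of this kind also picks genes by chance.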

How the results depend on the processing

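With the replicate number as a block, 8 of the 10 genes stayed past the threshold for OBX in Lip-C mice, where 2985 of all genes were called. The median within-group correlation was 0.82 in place of 0.71. The titles do not say that numbers pair arrays: same-numbered arrays correlated between -0.03 and 0.33 over 18 pairs, 10 of them over 0.1, and 10 of 12 arrays correlated best with their own number. Calls among the 44 other cartilage genes for Lip-C in OBX mice, 0 as reported, were 1 with the mean of probe sets and 1 with an intensity trend, and for the interaction 2 with that trend. The compared groups alone were not run for the interaction, where this is the same fit.

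Among the 44 other cartilage genes, leaving out each array gave 0 to 1 calls for Lip-C in sham mice, 0 to 2 for Lip-C in OBX, 7 to 14 for OBX in Lip-O, 4 to 19 for OBX in Lip-C and 0 to 1 for the interaction, and it gave the 10 genes a within-group correlation of 0.59 to 0.80. The median change of the 10 genes ran from -0.71 to -0.06 for Lip-C in sham, 1.12 to 1.81 for Lip-C in OBX, -0.53 to 0.02 for OBX in Lip-O, 1.33 to 2.02 for OBX in Lip-C and 1.57 to 2.36 for the interaction. Calls over all genes moved as well, from 840 to 3030 for OBX in Lip-C and from 1414 to 2788 for OBX in Lip-O mice. No called change turned its sign. Each of these fits also has fewer arrays, and the causes of the moves were not tested. Signals of Hapln1, Matn1 and Matn3 near the 40th percentile are the least certain.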
